A study of Danio rerio with 96 samples.

Results

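Zebrafish larvae with a mutant glucocorticoid receptor (GR) were compared with wild-type larvae after both had been kept in 100 µM betamethasone, a synthetic glucocorticoid. All libraries titled as betamethasone-treated were used, 24 of GR mutants and 24 of wild types, which is 48 of the 96 libraries of the series. Each library held DNA of the dissected head of a larva at 5 days post-fertilisation. GR mutants and wild types in 0.2% ethanol, 24 libraries each, are given only beside the main results. The mutant allele, and what remains of receptor function, are not given in the labels, and methylation values offer no check of the genotype or tissue labels. Methylation of CpGs was read from bisulfite-treated amplicons, where a cytosine without the mark is sequenced as T.

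GR is a nuclear receptor. On binding cortisol or a synthetic ligand such as betamethasone it enters the nucleus, binds DNA and changes the transcription of target genes in many tissues, the brain included. Methylation of cytosine in CpG pairs is a stable mark on DNA. In vertebrates most CpGs carry it, while active promoters and enhancers usually have less, and glucocorticoid signalling has been linked to local loss of methylation at some regulatory regions. A head holds many cell types, so a different mix of cells and a different level within cells cannot be told apart here.

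The data covered 50 CpGs in 8 amplicons on 6 chromosomes, with 1-based positions in GRCz10. Genes are not named, since no annotation of that build was used. Of the 24 mutant libraries, all gave at least 1 CpG value and 13 gave all 50. Of the 24 wild-type libraries, 23 gave a value and 18 gave all 50. Summed reads over all cytosines had a median of 1117623 in mutants (13422 to 1546505) and 1309557 in wild types (19 to 1970240). Depth differed between the groups at 2 of 8 amplicons, on chromosome 3 (median 132 reads in mutants and 972 in wild types) and chromosome 8 (36 and 1278). The methylation read outside CpGs, in part a measure of incomplete conversion, was 1.51% ± 0.434 in mutants (SD, n = 24) and 1.64% ± 0.379 in wild types (SD, n = 23), a difference of -0.13 percentage points when reads were summed (two-sided permutation test, p = 0.270). Taken as a mean over cytosines the levels were 1.36% ± 0.430 in mutants and 1.77% ± 0.409 in wild types, and the difference of -0.41 percentage points passed the threshold (permutation test, p = 0.00162).

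Libraries were not fully independent. CpG profiles were compared amplicon by amplicon, so a pair of libraries could count more than once. Profiles matched, at a chi-square per CpG below 4, in 28 of 178 comparisons of neighbouring replicate numbers of a group (15.7%). They matched in 52 of 1833 other comparisons within a group (2.84%) and 18 of 1893 between the 2 groups (0.951%). Of 475 within-group pairs that could be compared at no fewer than 3 amplicons, 0 matched throughout and 52 matched at 1 or more. Wild-type libraries 8 and 9, for instance, matched at 3 of 4 amplicons. Mutant library 19 and wild-type library 23 had their closest matches at 3 amplicons in another group, a wild-type control library for the mutant and mutant control libraries for the wild type. Among the controls, mutant library 23 had its closest matches at 5 amplicons in wild-type betamethasone libraries, and wild-type library 20 at 3 amplicons in mutant betamethasone library 19. All 4 were kept, and the results that rest on them are also given without them. The tests measure only the spread between these libraries.

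Methylation was higher in mutants at all 4 CpGs of an amplicon on chromosome 6 (41099247 to 41099469, plus strand, 41.1 Mb), by 4.67 to 18.0 percentage points. At a CpG on chromosome 16 it was lower in mutants by 15.4 percentage points. These were the 5 of 50 CpGs (10.0%) called by beta-binomial regression at an adjusted p below 0.05, with 4 higher (8.00% of those tested) and 1 lower (2.00%). Mean levels were higher in mutants at 26 CpGs and lower at 24, and the median difference over all CpGs was 0.159 percentage points. Of the 8 amplicons 2 were called (25.0%), that at 41.1 Mb higher and that on chromosome 16 lower (12.5% each).

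**Figure D1:**
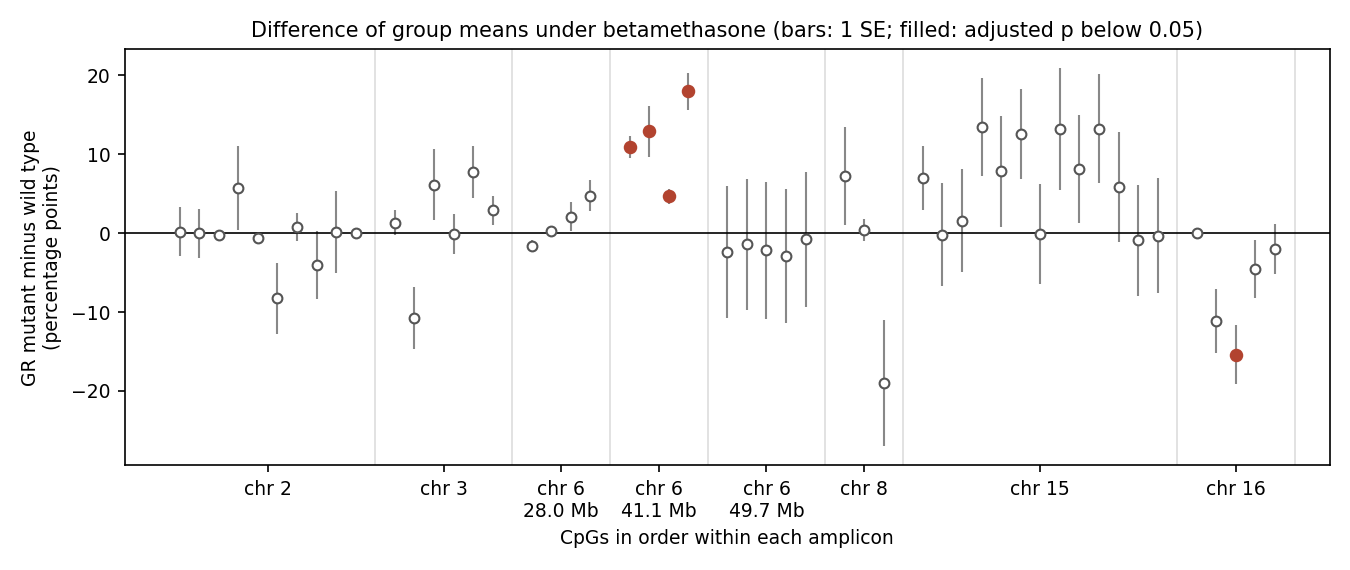
The vertical axis gives the mean level of GR mutants minus that of wild types under betamethasone, in percentage points, for each of the 50 CpGs, with bars of 1 SE; filled points had an adjusted p below 0.05. The 4 CpGs at 41.1 Mb are all filled and above 0, and a single CpG on chromosome 16 is filled and below 0.

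Summed over its 4 CpGs, the 41.1 Mb amplicon had a level between 60.8% and 82.2% in mutants, with a median of 73.2%, against 54.0% to 77.1% with a median of 60.9% in wild types. Mutant larvae were mostly high: 22 of 23 lay above the wild-type median. The means were 73.8% ± 5.71 in mutants and 62.2% ± 4.42 in wild types (SD, n = 23 each), a difference of 11.6 percentage points (SE 1.51, beta-binomial regression, adjusted p = 4.07e-09). The ranges overlapped, with 7 mutants above every wild-type larva. Without the 2 libraries that matched other groups the difference was 12.4 percentage points (adjusted p = 1.21e-10), and 19 of 22 mutants lay above every wild-type larva. Median depth was 7918 reads in mutants and 7999 in wild types. No count in the series exceeded 8088, so medians this close to the top cannot show whether depth was equal. Non-CpG methylation there was nearly equal, 1.30% and 1.31%.

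Within this amplicon the CpG at 41099447 differed most. Mutants ranged from 69.3% to 98.5% with a median of 95.1%, and wild types from 56.9% to 93.2% with a median of 72.2%. Mutants thus lay close to full methylation, and 18 of 23 were above every wild-type larva. The means were 92.3% ± 7.96 in mutants and 74.3% ± 7.68 in wild types (SD, n = 23 each), and differed by 18.0 percentage points (SE 2.31, beta-binomial regression, adjusted p = 1.54e-09). Counting error, which covers sampling of reads only, had a median over larvae of 0.246 percentage points in mutants and 0.514 in wild types. Both were far below the SD between larvae. This CpG lies 22 bp from the last covered cytosine, within the 25 to 30 bp that a primer's specific part spans, and whether primer bases were trimmed is not given in the sources used here.

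At 41099291 mutants ranged from 79.7% to 95.9% (median 93.9%) and wild types from 70.4% to 94.1% (median 79.9%). The means of 92.2% ± 4.42 in mutants and 81.3% ± 4.96 in wild types (SD, n = 23 each) differed by 10.9 percentage points (SE 1.39, beta-binomial regression, adjusted p = 2.36e-09). Of 23 mutants, 22 exceeded the wild-type median and 11 exceeded every wild-type larva. Without the 2 libraries named above the highest wild-type value was 88.3%, and 19 of 22 mutants lay above it.

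At 41099420 both groups were highly methylated. Mutants ranged from 86.9% to 99.7% (median 94.9%) and wild types from 78.3% to 94.5% (median 89.8%). The means of 94.5% ± 3.45 in mutants and 89.8% ± 3.25 in wild types (SD, n = 23 each) gave a difference of 4.67 percentage points (SE 0.988, beta-binomial regression, adjusted p = 3.50e-05). It was the smallest of the 4 differences, yet 15 of 23 mutants lay above every wild-type larva. Some did so narrowly, such as mutant libraries 13 and 15 with 94.6% each.

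The CpG at 41099385 was of another kind, with low levels in both groups. Mutants ranged from 0.474% to 41.6% (median 9.27%) and wild types from 0.138% to 26.4% (median 1.46%). Most wild-type larvae had almost no methylation there, while mutant levels split by replicate number. Mutant libraries numbered 1 to 11 had 10.5% to 41.6% where measured. Those numbered 12 to 24 had 0.474% to 9.27%, except library 18 with 22.6%. What the numbering stands for is not given in the labels. Of 23 mutants, 20 were above the wild-type median and 7, all numbered 1 to 11, above every wild-type larva. The means were 16.3% ± 14.6 in mutants and 3.39% ± 5.85 in wild types (SD, n = 23 each), 12.9 percentage points apart (SE 3.27, beta-binomial regression, adjusted p = 0.00546). With runs of 4 neighbouring replicate numbers averaged to 6 values per group, the exact permutation test no longer called this CpG (13.4 percentage points, adjusted p = 0.130).

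**Figure D2:**
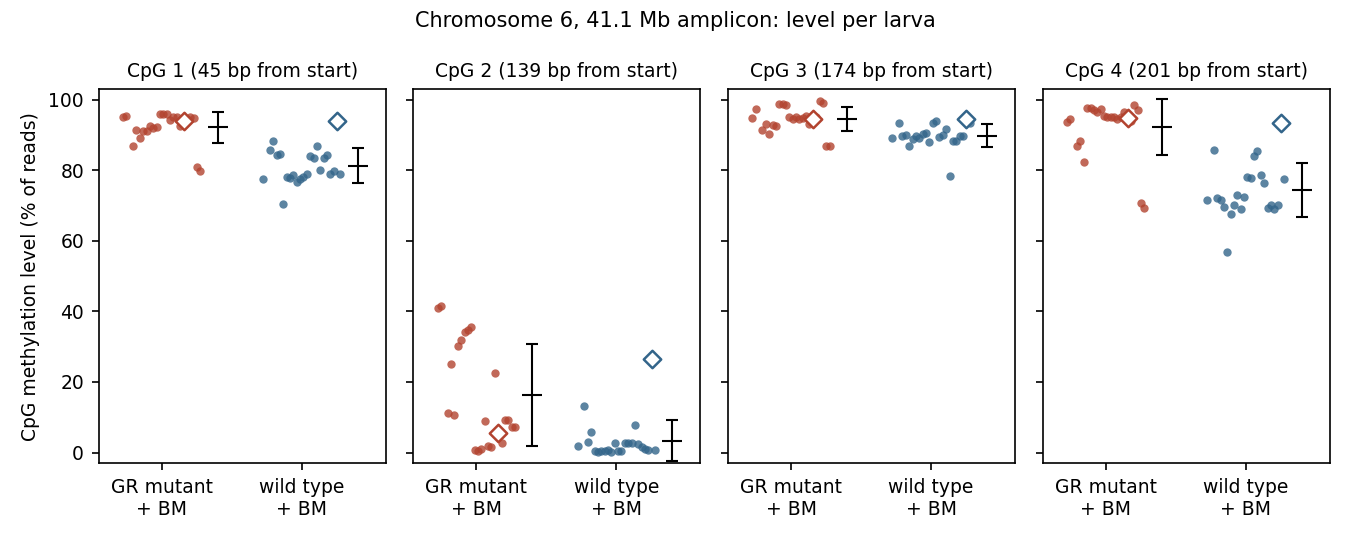
The vertical axes give the methylation level in percent of reads for each larva at the 4 CpGs of the 41.1 Mb amplicon, GR mutants on the left and wild types on the right of each panel, both under betamethasone; bars are means ± SD and open diamonds are the libraries that matched another group. The mutant mean is the higher at all 4 CpGs, and the open diamond of the wild types lies among the mutants.

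A few libraries stood apart at 41.1 Mb in the same way at several CpGs. Wild-type library 23, one of the 2 that matched other groups, had 94.1%, 26.4%, 94.5% and 93.2% at the 4 CpGs in order of position, the highest value of its group at each. Mutant libraries 23 and 24, whose profiles matched each other at 4 of 6 amplicons, had 80.8% and 79.7% at 41099291 and 70.8% and 69.3% at 41099447. Both were near the wild-type mean at these sites. When matching libraries were linked, the 23 libraries of each group fell into 14 clusters in mutants and 14 in wild types. Up to 6 mutants or 5 wild types were in a cluster. Libraries linked through a chain of matches need not match one another. The limit is stricter at greater depth, so libraries with close levels could still count apart. Mutant libraries 21 and 22 had 95.2% and 94.7% at 41099291 and 98.5% and 97.2% at 41099447, and were not linked. With matching libraries counted once the difference of the amplicon was 11.3 percentage points (beta-binomial regression, adjusted p = 4.22e-05). Of the 14 mutant values, 6, 4, 8 and 10 then lay above every wild-type value at the 4 CpGs in order of position.

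The same comparison without the drug gave smaller differences at this amplicon. In 0.2% ethanol mutants had a mean of 75.1% ± 4.91 and wild types 69.3% ± 3.32 (SD, n = 24 each), a difference of 5.82 percentage points. The genotype difference under betamethasone exceeded it by 5.80 percentage points (SE 1.93, beta-binomial interaction on the logit scale, adjusted p = 0.0205). The interaction was called at 3 of 8 amplicons (37.5%) and 7 of 50 CpGs (14.0%), and the 7 included none of the 4 CpGs at 41.1 Mb. Their genotype differences under betamethasone exceeded those in controls by 2.73 to 10.1 percentage points, with adjusted p from 0.0886 to 0.565. Without the 4 libraries that matched other groups, controls included, the excess of the amplicon was 5.71 percentage points (adjusted p = 0.0273) and the same 3 amplicons were called, but only 1 of the 7 CpGs, 25888054 on chromosome 3.

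The chromosome 16 amplicon (8404129 to 8404240, minus strand, 5 CpGs) had lower methylation in mutants. Mutants ranged from 26.4% to 43.9% (median 31.3%) and wild types from 21.5% to 56.1% (median 37.8%). All mutant values fell inside the wild-type range, toward its lower side, with 17 of 22 below the wild-type median. At 8404205 and 8404225 the mutants numbered 12 to 24, except library 18, all lay below those numbered 1 to 11. The means were 33.4% ± 5.22 in mutants (SD, n = 22) and 40.0% ± 9.29 in wild types (SD, n = 23), a difference of -6.63 percentage points (SE 2.23, beta-binomial regression, adjusted p = 0.0224). At a minimum of 1000 reads, which left fewer larvae in both groups, the call was lost (-7.69 percentage points, adjusted p = 0.115). It was also lost with matching libraries counted once (-4.86, adjusted p = 0.219) and with averaged runs (-6.10, adjusted p = 0.121). It held without the 2 libraries that matched other groups (-6.90, adjusted p = 0.0217). Non-CpG methylation at this amplicon was 1.06% in mutants and 1.40% in wild types, and its part in the result was not tested. Median depth was 446 reads in mutants and 2209 in wild types. The test of depth compared mean log10 reads, 2.67 in mutants and 2.94 in wild types, and did not pass the threshold (permutation test, adjusted p = 0.346). The part of depth in the result was not tested.

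The difference on chromosome 16 was largest at 8404205. Mutants ranged from 25.2% to 64.7% (median 45.5%) and wild types from 34.0% to 85.3% (median 58.8%). The ranges overlapped widely, although 18 of 22 mutants were below the wild-type median and 5 below every wild-type larva. Those 5 were close in replicate number, libraries 12, 13, 14, 16 and 17. Mutant libraries numbered 1 to 11 had 45.7% to 64.7% where measured. Those numbered 12 to 24 had 25.2% to 45.5%, except library 18 with 55.2%. The means of 44.6% ± 12.4 in mutants (SD, n = 22) and 60.0% ± 12.5 in wild types (SD, n = 23) differed by -15.4 percentage points (SE 3.71, beta-binomial regression, adjusted p = 0.00156). At a minimum of 1000 reads, which left fewer larvae in both groups, the call was lost (-12.6 percentage points, adjusted p = 0.146). It was also lost with averaged runs (-14.1, adjusted p = 0.170), and held without the 2 libraries (-15.7, adjusted p = 0.00187). In controls the genotypes differed there by -1.37 percentage points, and the interaction was called (-14.0 percentage points, SE 4.97, beta-binomial regression, adjusted p = 0.0401). Without the 4 libraries that matched other groups this interaction was lost (-12.4 percentage points, adjusted p = 0.113).

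Its neighbours differed less. At 8404225, which is 15 bp from an end of the amplicon, mutants had 51.3% ± 12.5 (SD, n = 22) and wild types 62.4% ± 14.7 (SD, n = 23), which missed the threshold (-11.2 percentage points, beta-binomial regression, adjusted p = 0.0531). Mutants reached from 36.1% to 71.6% and wild types from 31.0% to 85.1% at this site, with 14 of 22 mutants below the wild-type median. Mutant libraries numbered 1 to 11 had 48.9% to 71.6% where measured. Those numbered 12 to 24 had 36.1% to 46.1%, except library 18 with 58.5%. At 8404183 the means were 41.2% ± 6.90 in mutants and 45.8% ± 16.1 in wild types, and at 8404150 the difference was -2.02 percentage points. The fifth CpG, 8404240, was almost unmethylated in both groups.

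**Figure D3:**
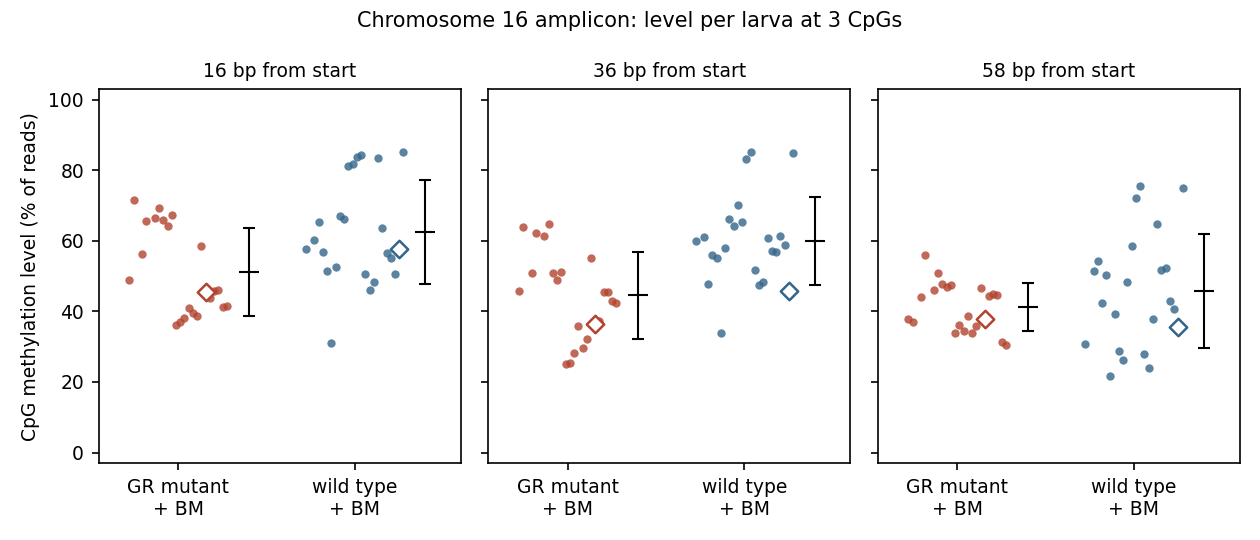
The vertical axes give the methylation level in percent of reads for each larva at 3 CpGs of the chromosome 16 amplicon, named by their distance from its start; GR mutants are on the left and wild types on the right, with means ± SD, and open diamonds are the libraries that matched another group. At the middle CpG, 8404205, mutants average 44.6% and wild types 60.0%, and at the right one, 8404183, wild types are the more widely scattered.

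None of the other 6 amplicons passed the threshold. Their differences lay between -3.78 percentage points on chromosome 8 and 6.26 on chromosome 15, with adjusted p from 0.257 to 0.965. The chromosome 8 amplicon turned to 9.96 percentage points and was called when libraries were weighted by their reads in a quasi-binomial F test (adjusted p = 0.0191). Mutant libraries 23 and 24 had 2837 and 2321 reads at its CpG 22488753, at levels of 98.3% and 98.2%. The other mutants had 30 to 221 reads there. In simulated data that test gave p below 0.05 at 15.5% of unchanged CpGs. On chromosome 6 at 49.7 Mb the mean was 51.8% ± 33.4 in mutants and 53.8% ± 23.2 in wild types (SD, n = 23 each), and the difference of -1.95 percentage points had an SE of 8.47. At that error a difference of the size seen at 41.1 Mb could not have been told from none. Non-CpG methylation at 49.7 Mb was 2.45% in mutants and 1.69% in wild types. In controls the same amplicon had 45.9% ± 23.3 in mutants and 78.1% ± 16.5 in wild types (SD, n = 24 each), -32.2 percentage points, and the genotype difference under betamethasone differed from it by 30.3 percentage points (SE 10.3, beta-binomial interaction, adjusted p = 0.0205), and by 27.9 without the 4 libraries (adjusted p = 0.0427).

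Single CpGs of these amplicons also missed the threshold on their level. On chromosome 3, 25888039 had 56.0% ± 12.4 in mutants and 66.7% ± 14.1 in wild types (SD, n = 23 each; -10.7 percentage points, SE 3.92, beta-binomial regression, adjusted p = 0.0763), with 21 of 23 mutants below the wild-type median. Its median depth was 136 reads in mutants and 1111 in wild types. Wild types with at least 6725 reads had 75.8% to 89.2%, and the others 46.0% to 70.7%. Mutant libraries 1 and 2, the only mutants at such depth, had 92.1% and 15.4%. The part of depth was not tested. On chromosome 8, 22488829 had the widest gap of all CpGs, 58.8% ± 24.8 in mutants (SD, n = 15) and 77.8% ± 22.7 in wild types (SD, n = 22). Its -19.0 percentage points had an SE of 8.03 (beta-binomial regression, adjusted p = 0.146). Median depth there was 61 reads in mutants and 1390 in wild types, with a median counting error of 6.08 percentage points in mutants, well below the SD between larvae.

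On chromosome 15, 4079277 had 57.0% ± 21.4 in mutants (SD, n = 24) and 44.4% ± 17.6 in wild types (SD, n = 23), 12.6 percentage points apart (SE 5.70, beta-binomial regression, adjusted p = 0.146). At 4079256 the means were 70.2% ± 21.1 in mutants and 56.7% ± 21.6 in wild types (13.5 percentage points, beta-binomial regression, adjusted p = 0.146). There 21 of 24 mutants lay above the wild-type median. At 28.0 Mb on chromosome 6, where nearly all reads were methylated, 27961650 had 97.1% ± 3.57 in mutants (SD, n = 19) and 92.4% ± 7.98 in wild types (SD, n = 20; 4.73 percentage points, adjusted p = 0.146). The smallest p at 49.7 Mb was at 49744068, with -0.77 percentage points (adjusted p = 0.992). That on chromosome 2 was at 14499788, with -0.64 (adjusted p = 0.536). At 14499783, also on chromosome 2, mutants had 89.4% ± 21.3 (SD, n = 23) and wild types 97.6% ± 2.40 (SD, n = 21). The difference of -8.26 percentage points was not called (beta-binomial regression, adjusted p = 0.698), and 6 of 23 mutants lay below every wild-type larva.

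How well a single CpG told the genotypes apart was measured by the area under the ROC curve (AUC), the share of mutant and wild-type pairs in which the mutant had the higher level. It is 0.5 for no separation and 1 or 0 for a complete one. Of the 50 CpGs, 6 (12.0%) departed from 0.5 at an adjusted p below 0.05 in a two-sided permutation test, while 30 CpGs lay between 0.4 and 0.6. The AUC was above 0.8 or below 0.2 at 5 CpGs, which were those called on their level. In amplicons without a called AUC, the values farthest from 0.5 were 0.388 at 14499783, 0.696 at 27961650 and 0.476 at 49744039 (permutation test, adjusted p = 0.522, 0.149 and 0.992). They were 0.288 at 22488829 and 0.687 at 4079256 (adjusted p = 0.146 each).

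At 41.1 Mb the AUC was 0.936 at 41099291, 0.928 at 41099447 and 0.858 at 41099420 (permutation test, adjusted p = 0.000167 each, from the smallest p that the resamples can give), and 0.826 at 41099385 (adjusted p = 0.00125). The sum over the 4 CpGs had an AUC of 0.928, so it did not exceed the best single CpG. In controls the AUCs of the 4 CpGs, in order of position, were 0.884, 0.675, 0.701 and 0.932. Without the 4 libraries that matched other groups they were 0.941, 0.696, 0.743 and 0.991 in controls. Under betamethasone they were then 0.955, 0.849, 0.862 and 0.932, so 41099447 had the higher AUC in controls. The difference in AUC between the conditions was not tested. On chromosome 16 the AUC was 0.194 at 8404205 (permutation test, adjusted p = 0.003), that is, a mutant was the lower of most pairs. With at least 1000 reads required, fewer larvae remained and that call was lost (0.262, adjusted p = 0.214), as it was with averaged runs (0.111, exact permutation test, adjusted p = 0.186).

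A threshold set on all other larvae placed each larva in a genotype. Those other larvae could include libraries with matching profiles, which were not left out. The counts may therefore overstate how well independent larvae would be placed. At 41099447 it placed 42 of 46 larvae correctly, 20 of 23 mutants and 22 of 23 wild types. At 41099291 it placed 40 of 46, at 41099420 37 and at 41099385 35. At 8404205 it placed 30 of 45, 13 mutants and 17 wild types. At 41.1 Mb 18 of the 23 wild types were misplaced at none of the 4 CpGs, 4 at 1 CpG, and library 23 at all 4. Of the 23 mutants, 8 were misplaced at none, 11 at 1 CpG, 1 at 2 and 3 at 3. The low-level site 41099385 misplaced 7 mutants and 41099420 misplaced 8.

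The sixth CpG called on its AUC was 25888068 on chromosome 3, where mutants ranged from 44.7% to 92.3% (median 52.1%) and wild types from 23.8% to 86.6% (median 47.5%). Of 23 mutants, 19 were above the wild-type median. The AUC was 0.767 (permutation test, adjusted p = 0.0127), and 33 of 46 larvae were placed correctly. Its mean levels, 54.0% ± 9.49 in mutants and 46.2% ± 12.6 in wild types (SD, n = 23 each), did not pass the test of level (7.81 percentage points, adjusted p = 0.146). Without the 2 libraries that matched other groups they did (9.85 percentage points, beta-binomial regression, adjusted p = 0.0162). The wild-type library left out, 23, was picked in part by its chromosome 3 profile and had the highest wild-type level here, 86.6%. The call without it is therefore not independent of that choice. The AUC call was lost with matching libraries counted once (0.734, adjusted p = 0.0814), and depth was 136 reads in mutants against 1109 in wild types, whose part was not tested.

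**Figure D4:**
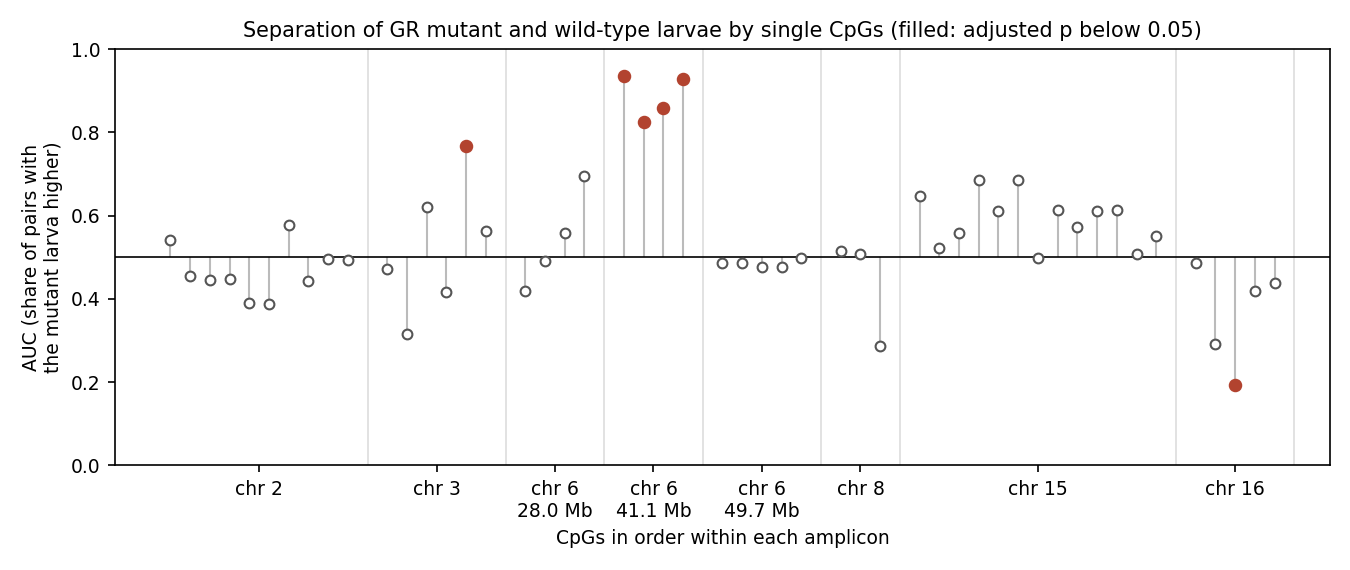
The vertical axis gives the AUC of each of the 50 CpGs for GR mutants against wild types under betamethasone, where values above 0.5 mean higher levels in mutants; filled points had an adjusted p below 0.05. The 4 CpGs at 41.1 Mb lie between 0.826 and 0.936, and 8404205 on chromosome 16 is lowest at 0.194.

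The last comparison asked whether larvae of one genotype differed more among themselves. Spread was the mean absolute deviation from the group's median, and a two-sided permutation test called 2 of 50 CpGs (4.00%). At 41099385 it was 11.8 percentage points in mutants and 2.85 in wild types (adjusted p = 0.0395), and the mutant levels there split by replicate number. At 8404183 on chromosome 16 the direction was the other way, with 6.05 percentage points in mutants and 13.0 in wild types (adjusted p = 0.0397). On the logit scale neither was called (adjusted p = 0.795 and 0.0765), nor was either with matching libraries counted once (0.323 and 0.105). Without the 2 libraries matching other groups both calls held (0.0005 and 0.0482).

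Across all CpGs the spread was larger in mutants at 27 and larger in wild types at 23. The amplicon at 49.7 Mb had the widest spread, with 28.9 to 30.2 percentage points in mutants and 18.5 to 19.9 in wild types over its 5 CpGs. These 5 CpGs move together within a larva and amount to nearly 1 measurement. Mutants reached from 8.29% to 96.4% (median 42.5%) and wild types from 18.6% to 93.0% (median 55.8%), but no CpG there passed the adjusted threshold (lowest adjusted p = 0.129). On chromosome 15 the spread was larger in mutants at 11 of 13 CpGs, with the smallest p at 4079328, where it was 24.2 percentage points in mutants and 11.4 in wild types (permutation test, adjusted p = 0.0640). On chromosome 3 it was larger in wild types at all 6 CpGs, with none called.

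**Figure D5:**
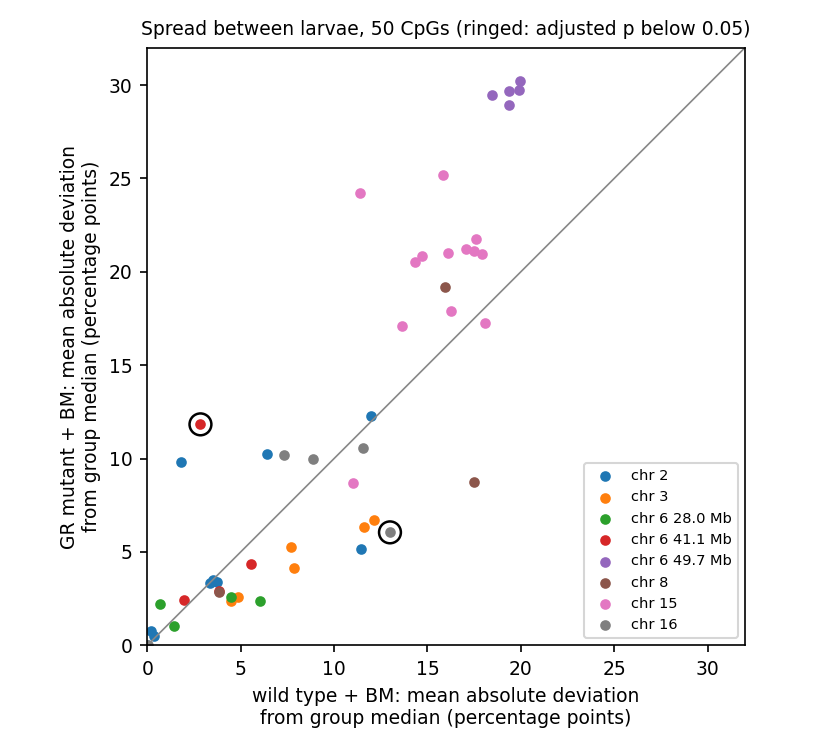
Each point is a CpG, with its spread between larvae (mean absolute deviation from the group median, percentage points) in GR mutants on the vertical and wild types on the horizontal axis, both under betamethasone, coloured by amplicon; the line marks equal spread and rings mark an adjusted p below 0.05. The ringed points are 41099385, with 11.8 in GR mutants and 2.85 in wild types, and 8404183, with 6.05 and 13.0.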

How the data were processed

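Bisulfite-converted DNA (100 pg) was amplified for 40 cycles with amplicon-specific primers, given barcodes in another PCR and read as 150 bp pairs, per the labels' protocols. FastQC, cutadapt and BS-Seeker2 with GRCz10 were used, per the submitters' processing notes; their versions and settings, and any read filters, are not stated. For each cytosine the authors deposited a count of methylated reads, a count of all reads and their fraction. The deposited counts were used here, with a level taken as methylated over all reads.

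A CpG needed 30 reads in at least 10 larvae of each group. Amplicons were runs of cytosines at most 100 bp apart with 30 reads in at least 48 of 96 libraries. Amplicon levels sum the reads of all CpGs, in larvae that had every one. Levels and the genotype by treatment interaction were tested by beta-binomial regression with two-sided likelihood ratio tests. Spread, AUC, depth and non-CpG levels were compared by permuting libraries between groups 100000 times, two-sided. For depth the statistic was the mean of log10 reads over all libraries of a group. Benjamini-Hochberg adjustment ran over all CpGs or amplicons of a test, and a call needed an adjusted p below 0.05. Profiles matched at a chi-square per CpG below 4 with at least 500 reads at each. The sites named were those called in any test and, in each amplicon, those with the smallest p and with the AUC farthest from 0.5. The comparison and the sites were chosen with earlier results of these data known.

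In simulated data with these depths, the beta-binomial test gave p below 0.05 at 7% of 200 unchanged CpGs. Of 50 CpGs each shifted by 5, 10 or 20 percentage points, 38%, 74% and 98% did. The quasi-binomial F test did so at 15.5% of the 200 unchanged CpGs. Simulated larvae were drawn independently, with the same dispersion in both groups, from the model that the beta-binomial test fits. The real libraries were not fully independent, so these rates need not hold for them. Each library was counted as 1 larval head; clutches, plates and batches are not given in the labels. The reads carry no molecular identifiers and are PCR copies, so counting errors cover sampling of reads only. Software was matplotlib 3.10.9, scipy 1.17.1, pandas 2.3.3 and numpy 2.4.6 under Python 3.11.15.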

Additional observations from a re-analysis of the deposited data

Results flagged for a closer look

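The genotype difference under betamethasone departed from that in controls (beta-binomial interaction, adjusted p below 0.05) at 3 amplicons and 7 CpGs, and values are differences of differences in percentage points. For whole amplicons it was -9.16 on chromosome 3, where mutants exceeded wild types by 1.13 under betamethasone and by 10.3 in controls, 5.80 at 41.1 Mb and 30.3 at 49.7 Mb. At 49.7 Mb the CpGs were 49743986 (31.2), 49743996 (31.6) and 49744068 (30.7); they share nearly 1 measurement. At the first of them mutants had 52.1% and wild types 54.6% under betamethasone, against 46.2% in mutants and 79.9% in wild types in controls. On chromosome 3, 25888054 gave -15.5: the genotypes differed by -0.14 under betamethasone, while mutant controls had 80.4% ± 10.2 and wild-type controls 65.0% ± 9.76 (SD, n = 23 each). At 28.0 Mb, 27961650 gave 9.20, with 4.73 under betamethasone and -4.47 in controls. On chromosome 16 the value was -14.0 at both 8404205 and 8404225, where the genotypes differed in controls by -1.37 and 2.82. Without the 4 libraries that matched other groups, the 3 amplicons and 25888054 (-14.8, adjusted p = 0.00401) were still called, while the other 6 CpGs kept their direction and missed the threshold (adjusted p = 0.113 to 0.118).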

How the results depend on the processing

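The 41.1 Mb amplicon was called at every setting it was run at (11.1 to 12.9 percentage points, adjusted p at most 0.0173). Of 5 called CpGs, 3 remained with averaged runs of 4 replicate numbers. A read-weighted quasi-binomial F test called 13, but in simulated data it gave p below 0.05 at 15.5% of 200 unchanged CpGs. The other settings called 4 to 6. Of 2 called amplicons, 1 remained at a minimum of 1000 reads, with matching libraries counted once, with averaged runs and under a replicate block. The block kept all 5 CpGs, while the chromosome 16 amplicon (-6.95, adjusted p = 0.0591) and the AUC of 8404205 (0.190, adjusted p = 0.0600) missed the threshold under it. Equal replicate numbers did not pair the libraries: 9 of 22 pairs correlated above 0.1, with a median of -0.13, and 2 of 22 correlated best with their own number.

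Of 2 spread calls, 1 remained at a minimum of 1000 reads; without libraries above 2% non-CpG methylation both were lost (adjusted p = 0.0593 each) and 1 other CpG was called. On the logit scale 0 were called by permutation test (10 at an unadjusted p below 0.05), with matching libraries counted once 0 (7 unadjusted), and with deviations from the mean 15. With averaged runs 3 of 6 AUC calls remained. Of 7 CpGs called on the interaction, 1 remained without the 4 libraries that matched other groups. The non-CpG difference was -0.41 percentage points (p = 0.00162) as a mean over cytosines. The chromosome 8 amplicon turned from -3.78 to 9.96 percentage points with the read-weighted F test (adjusted p = 0.0191). Most mutant reads there came from libraries 23 and 24, with 2837 and 2321 at 22488753 against 30 to 221 in other mutants. The cause of the turn was not tested. Leaving out the libraries that matched other groups, and counting matching libraries once for spread and AUC, were chosen after seeing the data. Depth on chromosomes 3 and 8 limits what single mutant libraries show.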
